A study of Mus musculus with 6 samples.

Results

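Immediate early response genes are switched on within minutes of a growth factor, cytokine or stress signal, without new protein synthesis. The Fos and Jun genes, which form AP-1, are the best known of them. The 10 genes described here belong to the same class of response but lie outside AP-1: the transcription factors Egr1, Egr2, Egr3, Nr4a1 and Klf6, the small nuclear protein Ier2, the survival regulator Ier3, and the negative regulators Dusp1, Zfp36 and Btg2. They were chosen by name, and all 10 were found among the 23951 genes of the table. All 10 passed the filter on low values, which asked for 0.1 FPKM or more on average, and none was listed at 0 in any mouse.

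RNA sequencing was performed on skin of 3 JunBΔep mice (labelled JunB dep) and 3 control mice (labelled JunB +/+), all of the C57Bl/6 strain and 6 to 7 months old. JunBΔep mice carry a conditional allele of Junb, which encodes the AP-1 subunit JunB, and a K5-Cre transgene that deletes it where keratin 5 is expressed. The other cells of whole skin keep Junb. The study's text describes the mutant skin as lesional and both sexes as included, while the labels give no sex. Replicate numbers 0, 1 and 2 are those of the labels. Each value is FPKM (fragments for each kilobase of a transcript, out of 1000000 mapped), a level corrected for transcript length, as the authors deposited it. The number of reads per mouse is unknown, and the FPKM values sum to between 481078 and 630363 per mouse. In bulk tissue, fewer cells of a type and less RNA per cell cannot be told apart.

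The deleted gene itself, Junb, was at 59.3, 72.4 and 56.9 FPKM for control replicates 0, 1 and 2, beside 42.8 and 28.0 FPKM for JunBΔep replicates 1 and 2. In the library labelled JunBΔep replicate 0 it was at 129.6 FPKM, above every control. This library therefore goes against its label for Junb, as far as whole skin can show it, and the members' differences are also given without it. The 7 keratinocyte markers on the list summed to 13695 FPKM in the library labelled JunBΔep replicate 0 and to 6509 to 9617 FPKM in the other 5. Krt14 was listed at 0 in that library and at 837 to 1304 FPKM in the other 5, while Krt5 was highest there, at 3725 FPKM. Over the table, 7 genes were at 0 in 1 mouse and at 3 FPKM or more in the other 5. For 6 of these 7 the mouse at 0 was that library. What these values of 0 stand for was not tested. The 5 neutrophil markers in the table summed to 24548 FPKM in that library. Their sums were 14.1 to 1452 FPKM among controls and 23.3 and 135.3 FPKM for JunBΔep replicates 1 and 2. S100a8 alone made up 24456 of the 24548 FPKM. Csf3r, Cxcr2 and Mmp8 were also highest in that library, at 44.3, 22.3 and 25.3 FPKM. S100a9 was listed at 0 in that library and Mmp8 in JunBΔep replicate 1. The 7 skeletal muscle markers summed to 16694 to 22905 FPKM among controls and to 1585 to 3806 FPKM in the JunBΔep libraries.

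The immediate early response works through factors that already sit on the promoter. Serum response factor (SRF) binds the CArG box together with partners that are phosphorylated by MAP kinases, and CREB binds the cyclic AMP response element (CRE). The proteins made next either drive a later wave of genes, as the EGR zinc finger factors do, or end the response: DUSP1 removes phosphate from MAP kinases and ZFP36 (tristetraprolin) marks AU-rich cytokine mRNAs for decay. In skin the programme is known to respond to wounding, ultraviolet light, scratching and handling of the tissue.

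The promoters of 4 members are shown because their expression results are the ones followed most closely below: Nr4a1 and Ier3, in which the groups did not overlap, and Dusp1 and Zfp36, the pair of members nearest to each other by place among all genes tested. The sequences are from RefSeq (GRCm38.p6), placed by exact match on mm9, and are printed 5′ to 3′ on the strand of the gene from 250 bases before the RefSeq start up to the base before the GENCODE gene.
Nr4a1 (chr15:101097027-101097276, plus strand): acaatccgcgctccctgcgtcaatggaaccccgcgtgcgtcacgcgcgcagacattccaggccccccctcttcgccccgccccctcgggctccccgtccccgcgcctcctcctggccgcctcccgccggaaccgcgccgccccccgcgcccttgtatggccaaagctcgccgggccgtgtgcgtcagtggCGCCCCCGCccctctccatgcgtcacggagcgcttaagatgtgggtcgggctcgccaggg
Ier3 (chr17:35958408-35958628, plus strand): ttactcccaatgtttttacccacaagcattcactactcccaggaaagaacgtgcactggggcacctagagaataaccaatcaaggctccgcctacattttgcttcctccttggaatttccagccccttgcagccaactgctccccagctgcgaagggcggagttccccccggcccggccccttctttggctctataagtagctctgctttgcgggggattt
Dusp1 (chr17:26645465-26645667, minus strand): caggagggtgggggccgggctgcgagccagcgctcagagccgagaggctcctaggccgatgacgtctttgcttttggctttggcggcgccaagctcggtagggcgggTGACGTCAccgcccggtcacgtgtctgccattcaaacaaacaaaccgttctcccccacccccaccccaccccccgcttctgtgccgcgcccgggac
Zfp36 (chr7:29164275-29164497, minus strand): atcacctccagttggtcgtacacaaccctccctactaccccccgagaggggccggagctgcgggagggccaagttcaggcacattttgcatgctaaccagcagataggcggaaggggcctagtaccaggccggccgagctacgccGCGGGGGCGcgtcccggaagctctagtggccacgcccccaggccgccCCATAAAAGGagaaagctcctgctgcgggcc
Capitals mark matches to 4 motifs searched on both strands: the CArG box, the CRE (TGACGTCA), the EGR site (GCGNGGGCG) and the AP-1 site (TGANTCA). No matches of different motifs overlapped.

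The search covered the 250 bases before each start, and 7 members had an entry, with 11 windows because Egr2 has several starts. Egr1, Egr3 and Ier2 had none. The CArG box was found in Zfp36, from 58 to 49 bases before the start, and in Egr2, against 1.47% of the 32851 windows of all genes. The CRE was found in Dusp1, from 143 to 136 bases before the start, and in Btg2, against 1.55% of all windows. The EGR site was found in Nr4a1, Zfp36 and Btg2, against 4.70% of all windows. The AP-1 site was found in 0 of the 11 windows, against 6.75% of all windows. These are matches of letters and not measured binding. Dusp1 and Zfp36 shared none of the 4 motifs within these windows, while Ier3 held none of them.

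The first question is whether deletion of epidermal JunB went with a different level of these genes. Values were compared on the log2(FPKM + 0.5) scale with limma over 17021 genes. None of the 10 members had an adjusted p below 0.05, against 1.38% of all genes tested, and 1 member, Nr4a1, had an unadjusted p below 0.05, against 7.56% of all genes tested. Of the 10 members, 9 had a positive log2 fold change, against 53.4% of all genes tested. The median log2 fold change of the 10 was 0.27, beside 0.03 over all genes tested. Without the library labelled JunBΔep replicate 0, 5 of the 10 were positive, against 54.1% of genes, none had an adjusted p below 0.05 from limma, against 0.798% of genes, and the median was 0.0014. In this fit of 3 controls against 2 mutants the excess of positive values was thus not present. With any other 1 mouse left out, the median lay between 0.14 (without control replicate 2) and 0.42 (without JunBΔep replicate 2).

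**Figure D1:**
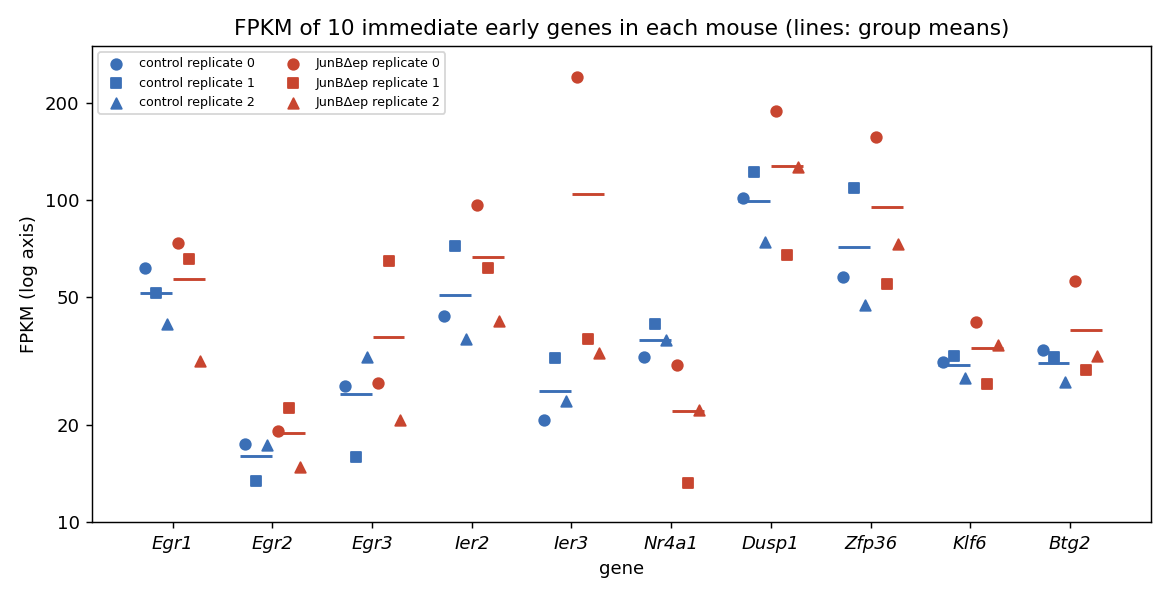
FPKM (log axis) of the 10 genes in each of the 6 mice; blue is control, red is JunBΔep, the marker shape gives the replicate number and horizontal lines are group means. All 3 JunBΔep values lie above all controls for Ier3 and below all controls for Nr4a1, and the groups overlap for the other 8 genes.

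Nr4a1 encodes NUR77, an orphan nuclear receptor that acts as a transcription factor and is induced in many cells, T cells and muscle among them. It was the only member with lower values in all JunBΔep mice. Nr4a1 (ENSMUSG00000023034.6, chromosome 15, 101097277 to 101105223 on mm9, plus strand) measured 32.4, 41.1 and 36.8 FPKM for control replicates 0, 1 and 2, beside 30.7, 13.3 and 22.3 FPKM for JunBΔep replicates 0, 1 and 2. JunBΔep replicate 0 lay just below the lowest control, and replicate 1 was lowest of the 6 mice. The group means were 36.8 ± 4.31 FPKM (SD, n = 3) and 22.1 ± 8.72 FPKM (SD, n = 3), a log2 fold change of -0.80 (standard error, SE, 0.31, 95% interval -1.56 to -0.03, limma unadjusted p = 0.0443 and adjusted p = 0.641). Groups that do not overlap in this direction made up 9.16% of all genes tested, and an unadjusted p below 0.05 in this direction 6.13%. The exact two-sided permutation test gave p = 0.1, the smallest that 3 mice against 3 allow. Without the library labelled JunBΔep replicate 0 the log2 fold change was -1.07 (limma adjusted p = 0.263).

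The difference in Nr4a1 went with other differences between the groups. The 7 skeletal muscle markers were lower in every JunBΔep mouse than in every control, and 6 of the 7 had an adjusted p below 0.05 from limma, in the direction of lower, against 1.38% of all genes tested. Without the library labelled JunBΔep replicate 0, 0 of the 7 did in limma (adjusted p of 0.0510 to 0.126). All 7 then had an unadjusted p below 0.05, and their median log2 fold change was -2.91. No gene of the table had an adjusted p below 0.05 in limma without any 1 control or without JunBΔep replicate 1. The same held with either of the blocks described below, so the calls of the muscle markers were lost there too. By mouse, the median of these markers against the control mean was -3.87, -3.63 and -2.26 on the log2 scale in JunBΔep replicates 0, 1 and 2, while Nr4a1 was at -0.25, -1.43 and -0.70. The order of these mice was therefore not the same for both. The medians of 6 fibroblast markers, at 0.11, -0.96 and -0.73, and of 5 macrophage markers, at 0.13, -1.496 and -0.37, had the order of Nr4a1 among the mutants, as did those of mast cell, erythrocyte and neutrophil markers. Among controls 0, 1 and 2 the fibroblast medians were 0.74, -0.89 and 0.15 and the macrophage medians 0.57, -0.37 and -0.12, the reverse of the order of Nr4a1. All 11 fibroblast and macrophage markers had a negative log2 fold change and none an adjusted p below 0.05 from limma. The part of muscle, fibroblasts and macrophages in the Nr4a1 difference was not tested. Nr4a2 and Nr4a3, the other members of the receptor family, were at 0.796 to 3.69 FPKM and 0.0384 to 1.38 FPKM over the 6 mice, far below Nr4a1, and their groups overlapped.

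Ier3 encodes IEX-1, a short-lived protein that modulates cell survival and is a known target of NF-κB. It was the only member with higher values in all JunBΔep mice. Ier3 (ENSMUSG00000003541.6, chromosome 17, 35958629 to 35959868 on mm9, plus strand) measured 20.7, 32.2 and 23.7 FPKM for control replicates 0, 1 and 2, beside 241, 37.0 and 33.6 FPKM for JunBΔep replicates 0, 1 and 2. JunBΔep replicate 2 exceeded the highest control by little, whereas replicate 0 was 9.43 times the control mean. The log2 fold change was 1.40 (SE 0.77, 95% interval -0.48 to 3.27, limma adjusted p = 0.722). Groups that do not overlap in this direction made up 5.62% of all genes tested. The exact two-sided permutation p was again 0.1. Without the library labelled JunBΔep replicate 0 the log2 fold change was 0.48 (SE 0.22, limma adjusted p = 0.710). Of the 5 neutrophil markers, given above, 4 also peaked in the library labelled JunBΔep replicate 0. The part of neutrophils in the Ier3 value was not tested.

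**Figure D2:**
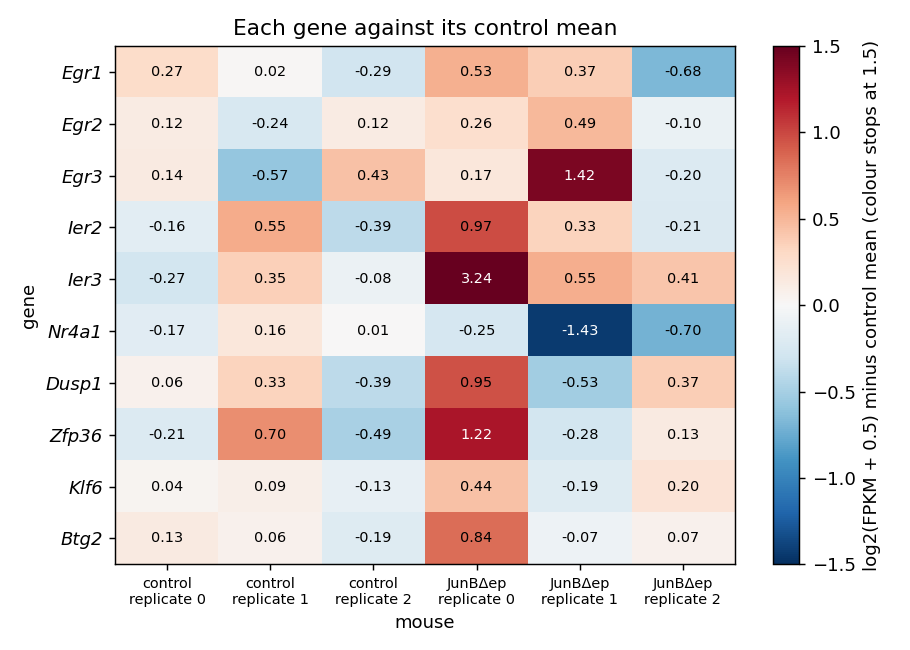
Each gene in each mouse as log2(FPKM + 0.5) minus the mean of the 3 controls; red is above and blue below the control mean, with the value printed in each cell. The library labelled JunBΔep replicate 0 is above the control mean for 9 of the 10 genes, up to 3.24 for Ier3, and below it for Nr4a1, at -0.25.

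The EGR genes encode closely related zinc finger transcription factors that bind the same GC-rich site. Egr2 and Egr3 had the same extremes, with control replicate 1 lowest and JunBΔep replicate 1 highest of the 6 mice, while Egr1 was highest in the library labelled JunBΔep replicate 0. All of them had JunBΔep replicate 2 as the lowest mutant. Egr1 (chromosome 18, 35020861 to 35024638) measured 61.2, 51.4 and 41.3 FPKM for control replicates 0, 1 and 2, beside 73.5, 65.7 and 31.5 FPKM among mutants in the same order. Mutant mice held both the highest and the lowest Egr1 value of the 6. Its log2 fold change was 0.08 (95% interval -0.79 to 0.94, limma adjusted p = 0.947). Without the library labelled JunBΔep replicate 0 it was -0.15. The annotation places a gene on the opposite strand, Gm17507, across Egr1, and the sources used here do not say whether fragments were counted by strand.

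Egr2, also called Krox20 and known for its role in myelinating Schwann cells, was the least expressed of the 3 and the least variable. Egr2 (chromosome 10, 66998223 to 67004936) measured 17.4, 13.4 and 17.4 FPKM among controls, beside 19.2, 22.7 and 14.8 FPKM among mutants, a log2 fold change of 0.21 (95% interval -0.31 to 0.74, limma adjusted p = 0.741). Egr3 (chromosome 14, 70477252 to 70479964) measured 26.4, 15.9 and 32.5 FPKM among controls, beside 27.0, 64.7 and 20.7 FPKM among mutants. A single library, JunBΔep replicate 1, stood above the rest for Egr3, and it was also the highest of the 6 for Egr2. The log2 fold change of Egr3 was 0.46 (95% interval -0.71 to 1.63, limma adjusted p = 0.752), and it was -0.02 without JunBΔep replicate 1. Without replicate 0 instead, the value was 0.61 for Egr3 and 0.19 for Egr2. Egr2 was at 0.08 without JunBΔep replicate 1, 0.09 without control replicate 1 and 0.37 without JunBΔep replicate 2. The corepressors of EGR proteins, Nab1 and Nab2, were highest in different mutant libraries, as Egr1 and Egr3 were. Nab2 was at 45.3 FPKM in JunBΔep replicate 1 and 14.3 to 25.1 FPKM in the other 5 mice. Nab1 was at 22.5 FPKM for the library labelled JunBΔep replicate 0 and 8.49 to 9.92 FPKM in the others.

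Dusp1, Zfp36 and Btg2 are the members that restrain signalling, mRNA stability and proliferation. Dusp1, the MAP kinase phosphatase, had the highest mean level of the 10 members in both groups. Dusp1 (chromosome 17, 26642535 to 26645464) measured 101.5, 122 and 73.9 FPKM for control replicates 0, 1 and 2, beside 188, 67.3 and 126 FPKM among mutants. The highest and the lowest value of the 6 were both in mutant mice, and the log2 fold change was 0.27 (95% interval -0.73 to 1.26, limma adjusted p = 0.823). Zfp36 (chromosome 7, 29161803 to 29164274) measured 57.5, 108.6 and 47.3 FPKM among controls, beside 156, 54.8 and 73.1 FPKM among mutants. Its log2 fold change was 0.36 (95% interval -0.82 to 1.53, limma adjusted p = 0.802). Excluding the library labelled JunBΔep replicate 0 gave -0.0757 for Dusp1 and -0.0739 for Zfp36.

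Zfp36 and Klf6 ordered the mice within each group as Dusp1 did. The order was taken from the values of Dusp1 after they were seen, and 3.97% of all genes tested had it. In these 3 genes control replicate 1 was above replicate 0 and replicate 0 above replicate 2, and JunBΔep replicate 0 was above replicate 2 and replicate 2 above replicate 1. Fos, an AP-1 gene chosen after its values were seen, had the same order. It was at 67.9, 93.3 and 31.4 FPKM among controls, beside 134, 29.7 and 47.7 FPKM among mutants. None of the other Fos and Jun genes had this order. Btg2, an antiproliferative gene induced by p53, was at 34.1, 32.5 and 27.2 FPKM among controls, beside 55.9, 29.6 and 32.7 FPKM among mutants. For Btg2 the library labelled JunBΔep replicate 0 was above the other 5, which lay close together. Its log2 fold change was 0.28 (95% interval -0.38 to 0.94, limma adjusted p = 0.737) with that library and -0.0018 without it.

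Klf6 encodes a Krüppel-like zinc finger factor, and Ier2 a nuclear protein induced by growth factors. Klf6 (chromosome 13, 5860735 to 5869639) had the smallest ratio of highest to lowest value of the 10, 1.56 times over the 6 mice, at 31.5, 32.8 and 28.1 FPKM among controls, beside 41.9, 26.8 and 35.4 FPKM among mutants. Its log2 fold change was 0.15 (95% interval -0.34 to 0.64, limma adjusted p = 0.801), the tightest interval of the members. Ier2 (chromosome 8, 87185230 to 87186751) measured 43.7, 71.7 and 37.0 FPKM among controls, beside 96.3, 61.6 and 42.0 FPKM among mutants. Control replicate 1 and the library labelled JunBΔep replicate 0 were the highest of their groups for Ier2, and the groups overlapped. The log2 fold change of Ier2 was 0.37 (95% interval -0.56 to 1.29, limma adjusted p = 0.752). Excluding the library labelled JunBΔep replicate 0 gave 0.06 for Ier2 and 0.0046 for Klf6. The interval of the difference included 0 for 9 of the 10 members, Nr4a1 being the exception, and this does not show that their levels were equal. Nr4a1 had an unadjusted p above 0.05 in limma without the intensity trend, with either block, and without any 1 mouse other than JunBΔep replicate 0. With the block on the 230s against the 270s, described below, Ier3 was the 1 member with an unadjusted p below 0.05 (log2 fold change 1.88, 95% interval 0.32 to 3.44, limma unadjusted p = 0.0265, adjusted p = 0.484).

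**Figure D3:**
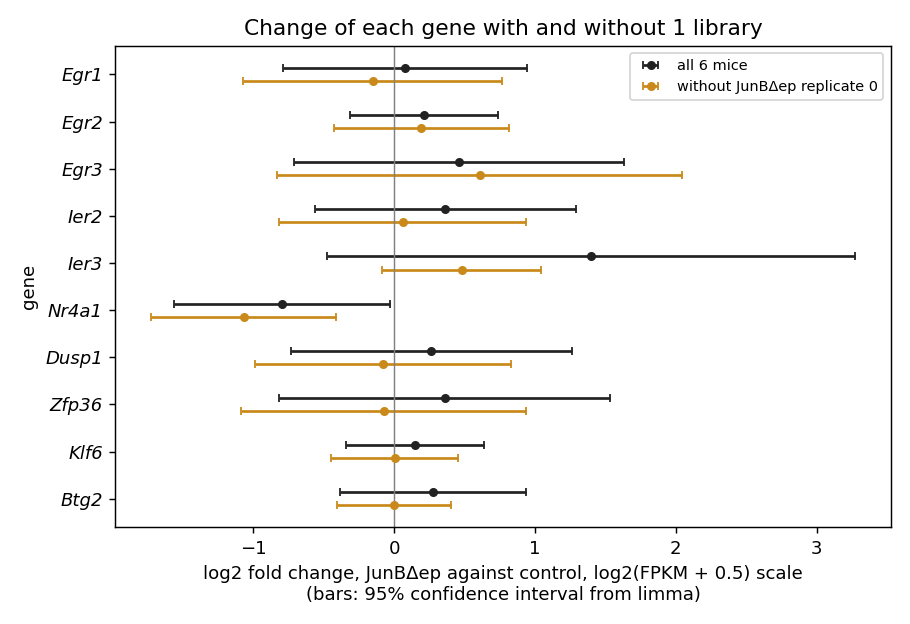
Log2 fold change of each gene, JunBΔep against control, on the log2(FPKM + 0.5) scale with 95% confidence intervals from limma, for all 6 mice (black) and without JunBΔep replicate 0 (orange). Intervals include 0 for every gene except Nr4a1, at -0.80 with all mice and -1.07 without that library.

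The order of the mean levels differed between the groups most for Ier3 and Nr4a1. In control skin the mean levels ran from Dusp1 (99.2 ± 24.2 FPKM, SD, n = 3) through Zfp36 (71.1 ± 32.8), Egr1 (51.3 ± 9.99), Ier2 (50.8 ± 18.4), Nr4a1 (36.8 ± 4.31), Btg2 (31.3 ± 3.64), Klf6 (30.8 ± 2.44), Ier3 (25.6 ± 5.98) and Egr3 (24.9 ± 8.40) to Egr2 (16.1 ± 2.29). The ranges of each gene and its next neighbour in this order overlapped in every case, in both groups. Ier3 stood at place 8 in control skin and at place 2 in JunBΔep skin, with 103.8 ± 118.8 FPKM there, an SD above the mean, and Nr4a1 stood at place 5 and at place 9. The high place of Ier3 came from the library labelled JunBΔep replicate 0. Over JunBΔep replicates 1 and 2 alone its mean was 35.3 FPKM, at place 6, and Nr4a1 was at place 10.

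The second question is how the 10 genes varied among mice within a group. On the log2 scale the median SD among the 3 controls was 0.30 for the members, beside 0.22 over all genes tested and 0.21 over the 4167 genes whose mean lay within the members' range of 17.5 to 113 FPKM. Of the 10 members, 6 lay above the last of these medians. Zfp36 differed by 2.30 times between its highest and lowest control, Egr3 by 2.04 times and Ier2 by 1.94 times. Klf6 differed by 1.17 times. Within the controls, replicate 1 was the highest for 6 members (37.3% of all genes tested) and replicate 2 the lowest for 6 (34.3% of all genes tested).

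Among all 6 mice, the library labelled JunBΔep replicate 0 was the highest for 7 of the 10 members, against 29.7% of all genes tested. The other 3 were Egr2, Egr3 and Nr4a1. Cell type markers also set this library apart: the 5 adipocyte markers summed to 59.0 FPKM in it, against 1210 to 3839 FPKM among controls and 2089 and 8949 FPKM for JunBΔep replicates 1 and 2. The 5 smooth muscle markers summed to 62.8 FPKM in it and to 105.7 to 189.9 FPKM in the other mice. The 7 keratinocyte markers had their highest sum in it, 13695 FPKM, against 6509 to 9617 FPKM in the other mice. The part of these cells in the members' values was not tested. Against the control mean, the members' median was 0.68 on the log2 scale in that library, 0.13 in JunBΔep replicate 1 and -0.02 in replicate 2, and it was 0.05, 0.13 and -0.16 in control replicates 0, 1 and 2. The same medians over all genes tested lay between -0.02 and 0.00. JunBΔep replicates 1 and 2 thus sat within the range of the controls or at its edge.

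The numbers in the sample names fall into the 230s and the 270s, with 1 JunBΔep and 2 control mice in the 230s and 2 JunBΔep and 1 control in the 270s. What these numbers stand for is not given. Within the 230s, 9 of the 10 members were higher in the single mutant, against 49.4% of all genes tested, a comparison that rests wholly on the library labelled JunBΔep replicate 0. Within the 270s, 9 of 10 were higher in the JunBΔep mice, against 55.1%. Nr4a1 was the exception in both, at -0.25 and -1.07 on the log2 scale. Ier3 was at 3.20 and 0.56. The 270s comparison does not contain the library labelled JunBΔep replicate 0. It rests on control replicate 2 alone, the mouse with the lowest value among controls for 6 members.

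The genes whose profile across the 6 mice was nearest to each member were found by the root mean square difference between log2 profiles, each centred on its own mean. For Ier3 they were Dnmt3l, Cnfn and Tnfsf11 (0.08, 0.13 and 0.19 on the log2 scale, where Ier3 itself spread by 1.17). Cnfn, cornifelin of the cornified envelope, was at 149, 213 and 185 FPKM among controls, beside 1757, 309 and 218 FPKM among mutants. Its groups again did not overlap, as for 5.62% of all genes tested in this direction. For Nr4a1 the nearest were Gm20594, Prkg1 and Medag (0.12 to 0.16, spread 0.53). Prkg1, a cyclic GMP dependent kinase of smooth muscle, was at 1.81, 2.12 and 1.94 FPKM among controls, beside 1.30, 0.284 and 0.731 FPKM among mutants.

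For Dusp1 the nearest profiles were those of Scimp, Ndrg1 and Mst1r (0.08 each, spread 0.50), and for Zfp36 those of Prr13, Gpx1 and Crip1 (0.14 to 0.15, spread 0.60). For Egr3 they were Robo1, Cdh24 and Fam64a (0.08 to 0.12, spread 0.62), and for Ier2 they were S100a6, Bola2 and Mt3 (0.11 to 0.12, spread 0.48). Egr1 was nearest to Pspn, Hist1h4i and Cdc25b, Egr2 to Zbtbd6, Ap2a1 and Hist1h4b, Klf6 to Emc3, Hmgcll1 and Igfbp4, and Btg2 to Nup62-il4i1, Ppargc1b and Foxn2. No member was among the 3 nearest genes of another member. By place among all genes tested, the closest pair of members was Zfp36 and Dusp1, at a difference of 0.26, with Dusp1 at place 51 in nearness to Zfp36. The smallest difference between members was the 0.17 of Klf6 and Btg2, both of which spread little.

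A wider list of 35 further immediate early and early response genes was examined next. Of these, 34 were tested, since Egr4 was below the filter, at 0.0459 to 0.163 FPKM. None had an adjusted p below 0.05 from limma. An unadjusted p below 0.05 was reached by 3, all in the direction of higher, where 1.43% of all genes tested were. A positive log2 fold change was found for 24 of the 34, against 53.4% of all genes tested. The count of 3 was 1 without control replicate 0 or 1 and 2 without control replicate 2. It was 5 without the library labelled JunBΔep replicate 0 and 8 without JunBΔep replicate 1 or 2. Over all genes tested the count in either direction was 1287 with all mice. That count was 793, 1041 and 1031 without control replicates 0, 1 and 2. Without JunBΔep replicates 0, 1 and 2 it was 1364, 1090 and 3124. The median log2 fold change of the 34 was 0.38, beside 0.03 over all genes tested. It was 0.16 without the library labelled JunBΔep replicate 0, with 26 then positive, against 54.1% of genes. In that library the 34 genes were at a median of 0.82 above the control mean, beside 0.08 and 0.20 in JunBΔep replicates 1 and 2.

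The largest differences on this list were those of Arc, Plk2, Gadd45g and Klf10. Plk2, a polo-like kinase, was at 16.1, 12.2 and 17.8 FPKM among controls, beside 90.9, 33.6 and 26.4 FPKM among mutants. Its groups did not overlap, as for 5.62% of all genes tested in this direction. Its log2 fold change was 1.48 (SE 0.47, limma adjusted p = 0.436), and 0.95 without the library labelled JunBΔep replicate 0. Gadd45g, a stress-induced growth arrest gene, went the other way, at 47.7, 86.6 and 49.8 FPKM among controls, beside 13.9, 41.8 and 34.9 FPKM among mutants (log2 fold change -1.10, limma adjusted p = 0.677, and -0.62 without that library). Klf10, a TGF-β inducible factor of the same family as Klf6, was at 15.0, 16.0 and 14.1 FPKM among controls, beside 55.6, 20.5 and 21.5 FPKM among mutants (log2 fold change 0.93, and 0.47 without that library). Arc was at 60.8 FPKM for the library labelled JunBΔep replicate 0 and 0.890 to 3.43 FPKM in the other 5 mice (log2 fold change 2.06, and 0.57 without it).

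**Figure D4:**
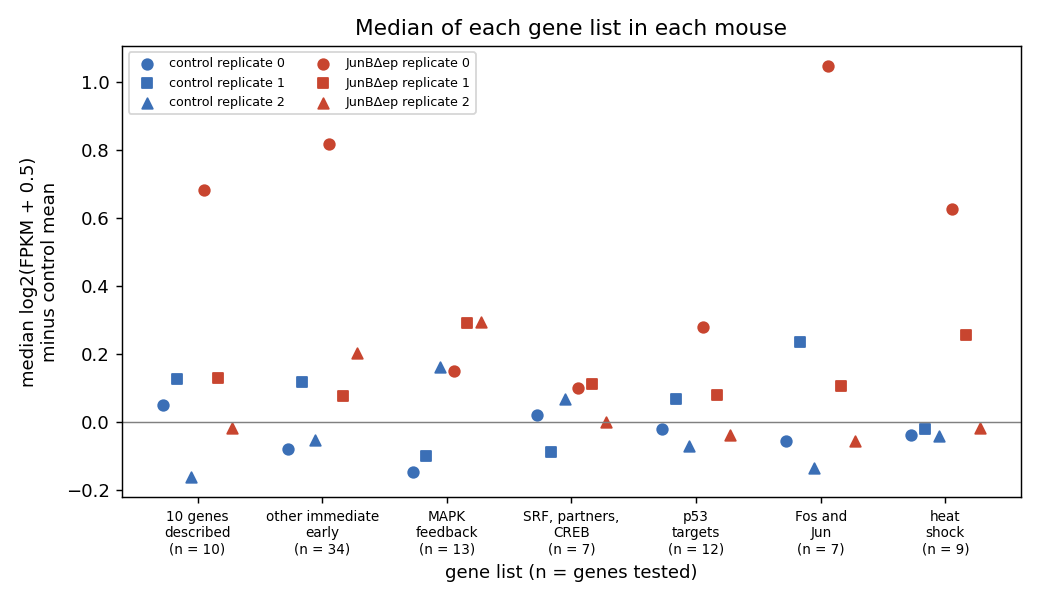
Median of each gene list in each mouse as log2(FPKM + 0.5) minus the control mean; n is the number of genes tested, blue is control, red is JunBΔep and the marker shape gives the replicate. The library labelled JunBΔep replicate 0 stands apart for the 10 genes (0.68), the other immediate early genes (0.82), Fos and Jun (1.05) and heat shock (0.63), while SRF, its partners and CREB stay between -0.09 and 0.11 in all mice.

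The factors that start the response had small log2 fold changes in this comparison. SRF, its partners Elk1, Elk3, Elk4, Mkl1 and Mkl2, and Creb1 had log2 fold changes of 0.01 to 0.23, and none of the 7 had an unadjusted p below 0.05 from limma. Srf was at 21.8, 25.1 and 23.2 FPKM among controls, beside 25.0, 24.3 and 22.0 FPKM among mutants. Elk3 was at 19.1 FPKM for the library labelled JunBΔep replicate 0 and 3.26 to 7.73 FPKM in the others. Without that library its log2 fold change turned from 0.23 to -0.37, and 4 of the 7 factors were positive rather than 7.

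Feedback inhibitors of MAP kinase signalling, the DUSP, Sprouty and SPRED genes (13 tested), had 10 positive and 3 negative log2 fold changes. Of all genes tested, 53.4% were positive. The median of the list was 0.32, beside 0.03 over all genes tested. Without the library labelled JunBΔep replicate 0, 10 were again positive, against 54.1% of genes, with a median of 0.31. None had an adjusted p below 0.05 from limma, and an unadjusted p below 0.05 was reached by Dusp10 as lower and Dusp6 as higher, against 7.56% of all genes tested in either direction. The count of 2 was 1 without control replicate 0 or 1, without JunBΔep replicate 0 or 1, and with the replicate block. Dusp10, a phosphatase of p38 and JNK, was at 9.24, 9.15 and 7.39 FPKM among controls, beside 1.52, 3.85 and 2.40 FPKM among mutants, a log2 fold change of -1.62 (SE 0.32, limma adjusted p = 0.108). Dusp6, a phosphatase of ERK, was at 9.55, 11.7 and 19.95 FPKM among controls, beside 50.3, 38.6 and 18.7 FPKM among mutants (log2 fold change 1.31, limma adjusted p = 0.483). Dusp1 resembled neither, with values in JunBΔep replicates 1 and 2 on either side of the control mean. Dusp2 was at 18.0 FPKM in JunBΔep replicate 1, the library in which Egr3 and Nab2 were highest too, and at 1.35 to 8.12 FPKM in the other mice, and Dusp4 had a log2 fold change of 0.57.

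ZFP36 acts on AU-rich mRNAs, and 8 of its known targets were examined beside it: Tnf, Il6, Csf2, Cxcl1, Cxcl2, Ptgs2, Il23a and Ccl3. All 8 had their highest value, as Zfp36 did, in the library labelled JunBΔep replicate 0, against 29.7% of all genes tested. Csf2 passed the filter only through that library, at 0.822 FPKM there and 0.0614 to 0.117 FPKM in the other mice. Its peak there was therefore fixed by the filter. None of the 8 had an adjusted or an unadjusted p below 0.05 from limma. Their median against the control mean was 5.15 on the log2 scale in that library, 0.01 in JunBΔep replicate 1 and -0.01 in replicate 2. Ptgs2, which encodes cyclooxygenase-2, was at 0.688, 0.395 and 0.633 FPKM among controls, beside 28.3, 0.370 and 0.547 FPKM among mutants. Ccl3 was at 57.3 FPKM for the library labelled JunBΔep replicate 0 and 0.187 to 0.305 FPKM elsewhere. Cxcl2, a neutrophil-attracting chemokine with the largest log2 fold change of the list (3.42), was at 0.149, 0.0890 and 0.0781 FPKM among controls, beside 244, 0.279 and 0.926 FPKM among mutants. All 3 mutants were above every control, as for 5.62% of all genes tested. Without the library labelled JunBΔep replicate 0 the log2 fold change of Cxcl2 was 0.80 (limma unadjusted p = 0.0395, adjusted p = 0.568). Of the 5 neutrophil markers, 4 peaked in the library labelled JunBΔep replicate 0. The part of neutrophils in the values of Zfp36 and these targets was not tested.

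Targets of p53 were listed because Btg2 is among them. Of the 12 tested, none had an adjusted p below 0.05 from limma, 1 had an unadjusted p below 0.05, against 7.56% of all genes tested, and 7 had a positive log2 fold change, against 53.4%, with a median of 0.05. That 1 gene was Ccng1. The count was 2 without control replicate 1 or without JunBΔep replicate 2, and stayed at 1 without any 1 of the other mice. Ccng1, cyclin G1, was at 68.9, 58.7 and 72.7 FPKM among controls, beside 25.4, 13.6 and 26.3 FPKM among mutants (log2 fold change -1.64, SE 0.28, limma adjusted p = 0.0658). Its groups did not overlap, as for 9.16% of all genes tested in this direction, and without the library labelled JunBΔep replicate 0 the log2 fold change was -1.78. Pmaip1, which encodes the BH3-only protein NOXA, was at 13.3 FPKM for that library and 1.98 to 3.02 FPKM in the other 5 mice (log2 fold change 0.85, and 0.11 without it). Cdkn1a, the cell cycle inhibitor p21, was at 168, 180.2 and 160 FPKM among controls, beside 202, 230.02 and 184 FPKM among mutants. Its log2 fold change was 0.27 (limma adjusted p = 0.722). It was higher in 3 of 3 mutants than in every control, as were 5.62% of all genes tested.

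Of the Fos and Jun genes, Fosl2 had all JunBΔep mice above all controls, as for 5.62% of all genes tested. It was at 23.3, 22.2 and 27.4 FPKM among controls, beside 91.3, 46.9 and 29.2 FPKM among mutants. Its log2 fold change was 1.03 (limma adjusted p = 0.639), and 0.60 without the library labelled JunBΔep replicate 0. Fosl1 was at 15.6 FPKM for that library and 0.141 to 0.414 FPKM in the other 5 mice (log2 fold change 1.55, and 0.11 without it). None of the 7 had an adjusted p below 0.05 from limma, and 1 had an unadjusted p below 0.05, against 7.56% of all genes tested. That count was 0 without control replicate 0, control replicate 2 or JunBΔep replicate 1, with no filter and with the replicate block.

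Inducible chaperones were examined because they too can respond to stress on the tissue before it is frozen or lysed. Of the 9 heat shock genes, none had an adjusted or an unadjusted p below 0.05 from limma, and 7 had their top value in the library labelled JunBΔep replicate 0, against 29.7% of all genes tested. Hspa1a, an inducible HSP70 gene, was at 17.2, 17.1 and 15.2 FPKM among controls, beside 19.1, 14.8 and 16.3 FPKM among mutants. Hsp90aa1 was at 63.5, 63.6 and 79.9 FPKM among controls, beside 153, 111 and 68.8 FPKM among mutants (log2 fold change 0.62, and 0.35 without that library). The median of the list against the control mean was 0.63 on the log2 scale in the library labelled JunBΔep replicate 0. That of the 10 members was 0.68. The part of stress on the tissue in these values was not tested.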

How the data were processed

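The data are 1 table of FPKM values per gene for whole skin of 3 control and 3 JunBΔep mice. Poly(A) libraries with strand information were aligned to mm9 by the authors, whose notes name TopHat2 2.0.10, Bowtie 1.0.0, SAMtools 0.1.19, Cufflinks and FastQC and whose annotation came from iGenomes. The FPKM values were used as the authors deposited them. Whether libraries were scaled further is not stated. The authors' own test was DESeq2 on counts, and no counts were used here.

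Log2(FPKM + 0.5) values were compared by limma 3.58.1 (R 4.3.3) with a trend of variance on level and no block, for 17021 genes averaging 0.1 FPKM or more. P-values are two-sided and were adjusted by Benjamini and Hochberg's method across these genes, with 0.05 as the threshold. Fold changes on this scale understate the change of low genes. Python 3.11.15, pandas 2.3.3 and matplotlib 3.10.9 gave summaries and figures. The procedure was tested on simulated data.

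The members and lists were chosen with earlier results of these data known. Genes named are the 10 members, Junb, for each list the genes called or otherwise up to 4 with the largest absolute log2 fold change, the Nab corepressors, the 3 nearest profiles of each member, and cell type markers. Nr4a2, Nr4a3, Egr4, Fos, Srf, Csf2, Cdkn1a and Hspa1a fall outside this rule and were chosen after their values were seen. Positions come from the GENCODE vM1 annotation of mm9. The alternatives changed the pseudocount (0.1 or 1), the filter (none, or 1 FPKM), the scaling (median ratio, equal sums, quantiles), the variance model (no trend, robust prior) and the block (replicate number, or number series of the sample names), or left out 1 mouse.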

Additional observations from a re-analysis of the deposited data

How the results depend on the processing

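No member had an adjusted p below 0.05 in any of the 17 alternatives, and the smallest was 0.263 (limma, without JunBΔep replicate 0, for Nr4a1). In the 11 alternatives that keep all 6 mice no member changed sign. With the block on the 230s against the 270s, which keeps all mice, 7 members moved by over 1.5 times: Egr1 from 0.08 to 0.26, Egr3 from 0.46 to 0.28, Ier2 from 0.37 to 0.62, Dusp1 from 0.27 to 0.53, Zfp36 from 0.36 to 0.70, Klf6 from 0.15 to 0.25 and Btg2 from 0.28 to 0.46. Nr4a1 lay between -1.07 and -0.48 and Ier3 between 0.48 and 1.89 over all 17. Leaving out 1 mouse at a time changed the sign of 5 members: the log2 fold change ranged from -0.15 to 0.45 for Egr1, -0.017 to 0.79 for Egr3, -0.0757 to 0.66 for Dusp1, -0.0739 to 0.71 for Zfp36 and -0.0018 to 0.45 for Btg2. It ranged without a change of sign from 0.08 to 0.37 for Egr2, 0.06 to 0.65 for Ier2 and 0.0046 to 0.32 for Klf6. The number of members with a positive value then ranged from 5 (without the library labelled JunBΔep replicate 0) to 9.

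The count of genes called over the whole table, 235 in limma and all lower, ranged from 0 to 254 with 1 mouse left out: it was 0 without any one of the controls or without JunBΔep replicate 1, 135 without JunBΔep replicate 0 and 254 without JunBΔep replicate 2. It was 0 with a replicate block (972 genes at an unadjusted p below 0.05 from limma) and 0 when the block was the 230s against the 270s of the sample names (1523 genes). The shares of all genes called that are printed beside the members depend on these choices. Whether the replicate numbers pair the mice is not stated. The correlations of same-numbered mice around their group means were 0.12, -0.23 and -0.43. Deviations from a mean of 3 mice are bound to sum to 0, so these correlations cannot decide on pairing. The replicate block called no member. The number of reads is unknown, so the counting error of each value is not given.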
